A study of Ovis aries with 2 samples.

Results

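The cells described here were selected on 3 genes, SST, INS and C1QA, in the library of Hulunbuir short-tail sheep embryos. A barcode was kept when it held at least 200 genes and under 10% mitochondrial UMIs, and a kept cell was chosen by having at least 2 UMIs summed over the 3 genes. UMIs are the molecular tags by which each captured RNA molecule was counted once. The rule chose 220 of 9583 kept cells, 2.30% of the library with an exact binomial 95% interval of 2.01 to 2.62%. Single-cell RNA had been measured at embryonic day 16 in embryos of Hulunbuir short-tail sheep, the experimental group, and of long-tailed Ujumqin sheep, the control group. Extraembryonic tissue was dissected away, the embryos were dissociated with enzymes, and red blood cells were lysed before loading. Embryos were pooled, and although the design text gives 3 per breed, each breed has 1 library in which cells cannot be assigned to an embryo. No test between breeds or between embryos was therefore possible, all comparisons between groups of cells are descriptions of these libraries, and intervals cover counting error only.

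SST encodes somatostatin, a peptide hormone of pancreatic delta cells, gut endocrine cells and neurons that restrains the release of other hormones. INS encodes insulin, made in the adult by pancreatic beta cells, and its fetal relative IGF2 is a growth factor that is widely transcribed in embryos. C1QA encodes the A chain of C1q, which starts the classical complement pathway together with the B and C chains and is mostly made by macrophages. In the sheep RefSeq gene order (assembly ARS-UI_Ramb_v3.0), INS lies between TH and IGF2 on chromosome 21.

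The selected cells were not unusually deep or shallow. Their median was 10835.5 UMIs and 2143.5 genes per cell, against 11914 UMIs and 2181 genes in the other 9363 kept cells, and mitochondrial UMIs made up 4.12% and 3.88%. Depth ranged from 652 to 86282 UMIs among the selected cells. Of the kept barcodes, 50 were present in both libraries, and 3 of these were selected cells, none of which met the rule in the Ujumqin library. Doublets were left in, since no annotation of them was at hand. The median Scrublet doublet score was 0.0751 in the selected cells and 0.0923 in the others, and 11 of the 220 cells were among the 821 cells of highest score.

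With any UMI counted as presence, 161 of the 220 selected cells (73.2%) carried more than 1 of the 3 genes. The share depended on depth and on the minimum, and was 49.1% when a gene needed 2 UMIs, 45.4% among cells chosen with at least 1 UMI and 45.6% with cells thinned to 1000 UMIs. All 3 genes were found together in 61 cells (27.7%, 21.9 to 34.1%). Another 56 cells (25.5%) carried INS and C1QA without SST, 22 carried SST and INS, and 22 carried SST and C1QA. The remaining 59 cells (26.8%) had UMIs of a single gene, which was SST in 27 cells, C1QA in 23 and INS in 9. INS and C1QA thus shared 117 of the 220 cells (53.2%, 46.4 to 59.9%), and SST shared 83 cells with each of them.

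Levels of the 3 genes are what the rule used and are given as a description. SST had a lowest count of 0, a median of 2 and a highest of 263 UMIs per cell. INS ranged from 0 through a median of 1 to 32 UMIs, and C1QA from 0 through a median of 2 to 33 UMIs. SST was the most uneven of them, since the 10 cells with the most SST held 37.4% of its 4106 UMIs in the selected cells, against 25.3% for INS and 22.5% for C1QA. The selected cells held 98.3% of all SST UMIs in kept cells of the library, 96.0% of INS UMIs and 95.7% of C1QA UMIs. In CPM, the UMIs of a gene summed over cells and scaled to a total of 1000000 UMIs, SST was 1439.8 in the selected cells and 0.548 in the others, INS was 244 and 0.231, and C1QA was 289 and 0.294.

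**Figure D1:**
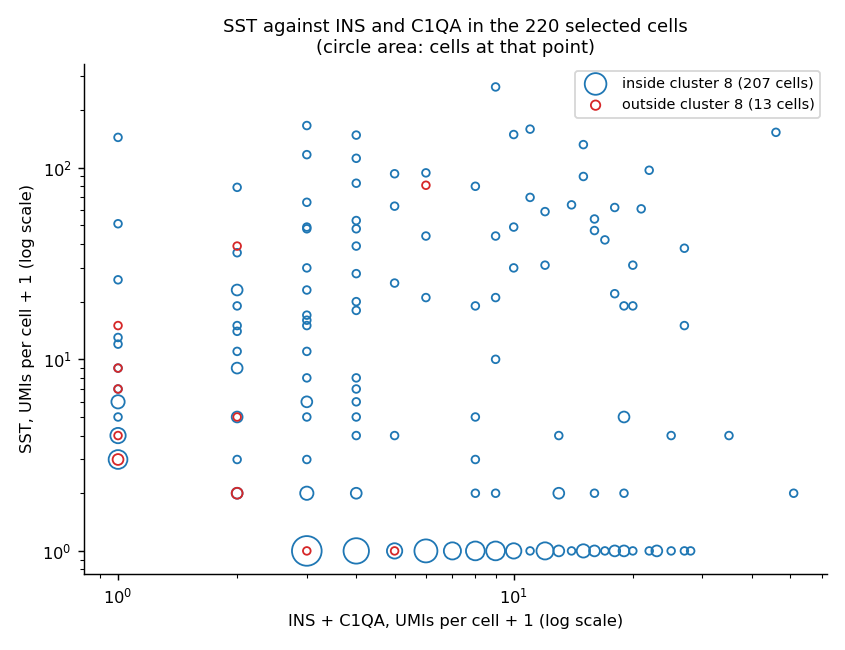
UMIs of SST (vertical axis, UMIs per cell plus 1, log scale) against the sum of INS and C1QA (horizontal axis, same unit and scale) in the 220 selected cells, with circle area giving the number of cells at a point, blue for cells inside cluster 8 and red for the 13 cells outside it. Cells lie along both axes and fill the space between them, and the cell with the most SST (263 UMIs) also carried INS or C1QA.

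The 3 genes met in 1 group of cells that was found without them. The library was clustered on its 2000 most variable genes, with SST, INS, C1QA and IGF2 kept out of that set, which gave 17 clusters. Cluster 8, with 316 cells, held 207 of the 220 selected cells (94.1%, 90.1 to 96.8%), and they made up 65.5% of it. SST stood at 1151 CPM in cluster 8, with 3953 UMIs, and had 82 UMIs in the 500 cells of cluster 6, 80 of them in 1 cell, and 53 in the 192 cells of cluster 14. INS stood at 204 CPM against at most 1.47, and C1QA at 242 CPM against at most 1.47, both in cluster 4.

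Because cluster 8 was not built on the 3 genes, their sharing can be read over all its 316 cells. At least 1 of the genes was detected in 240 of them (75.9%), with SST in 127, INS in 155 and C1QA in 173. C1QA was detected in 74.2% of the cells with INS (66.6 to 80.9%) and in 36.0% of the cells without INS. INS was detected in 63.0% of the cells with SST (54.0 to 71.4%) and in 39.7% of those without it. C1QA was detected in 63.0% of the cells with SST and in 49.2% of those without it. Deeper cells show more genes, so the cells were also thinned to 5000 UMIs, which left out 73 of the 316 cells. C1QA was then detected in 74.5% of the cells with INS and in 36.6% of those without. INS was then detected in 50.5% of the cells with SST (39.9 to 61.2%) and in 34.2% of those without it. At that depth C1QA was detected in 60.4% of the cells with SST and in 46.7% of the cells without SST.

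**Figure D2:**
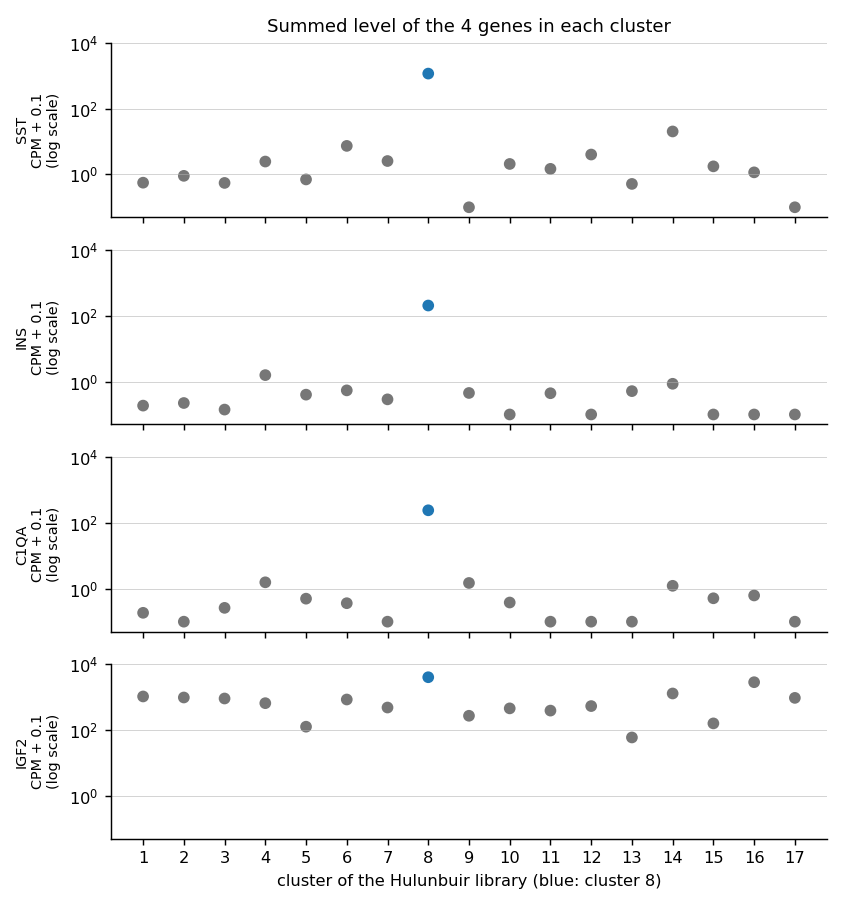
Level of SST, INS, C1QA and IGF2 in each of the 17 clusters of the Hulunbuir library, in CPM plus 0.1 on a log scale, summed over the cells of a cluster. Cluster 8 (blue) is far above all others for SST, INS and C1QA, while IGF2 was found in every cluster, from 59.8 CPM in cluster 13 to 4046 CPM in cluster 8.

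Outside cluster 8 the 3 genes were rare. Among its 9267 other cells there were 222 UMIs of SST, 25 of INS and 29 of C1QA, and 1 cell carried all 3. After thinning to 5000 UMIs, SST was detected in 0.247% of 7297 cells outside the cluster and in 39.1% of the 243 cells inside it, INS in 0.110% and 42.4%, and C1QA in 0.110% and 50.6%. Without thinning, 0.737% of cells that the rule did not select had a UMI of SST, 0.310% of INS and 0.395% of C1QA. The 13 selected cells outside cluster 8 held 159 SST, 8 INS and 7 C1QA UMIs, and 6 of them carried SST alone. One of the 13 lay in cluster 6, led by the endothelial genes CD93 and PECAM1, and carried 80 SST, 3 INS and 2 C1QA UMIs. That cell had 47763 UMIs, and its doublet score stood at the 97.9th percentile of the library. The part of doublets in it was not tested.

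Cells just below and just above the minimum of 2 UMIs differed. Of the 135 cells with exactly 1 UMI, 24.4% were in cluster 8, against 82.1% of the 28 cells with exactly 2 UMIs and 93.1% of the 29 cells with 3 to 4. IGF2 was 1209 CPM in the cells with 1 UMI and 3575 CPM in the cells with 2. Counting only cells of cluster 8, IGF2 was 3210.3 CPM with 0 UMIs, 2936 CPM with 1 and 4132 CPM with 2. The cluster also held 109 cells that the rule did not select, 33 with 1 UMI and 76 with none. Their median depth was 6260 UMIs, against 10834 for the selected cells of the cluster.

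**Figure D3:**
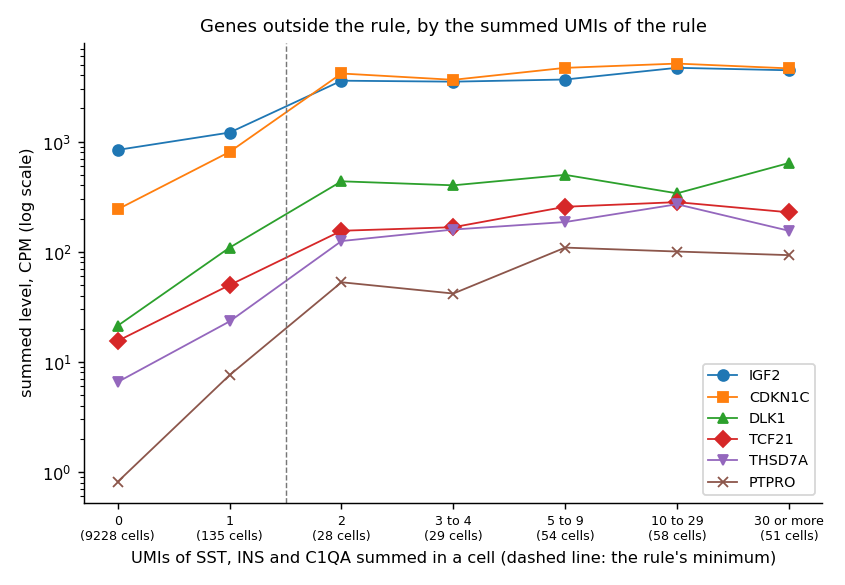
Level of 6 genes that the rule did not use, in CPM on a log scale, by the number of UMIs of SST, INS and C1QA summed in a cell; the dashed line marks the minimum of 2 UMIs. All 6 genes were higher at 2 UMIs than at 1, with CDKN1C at 4156 CPM against 807 and PTPRO at 52.8 CPM against 7.58. Cells of all clusters are counted, and 24.4% of those with 1 UMI and 82.1% of those with 2 lay in cluster 8.

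IGF2 was present in nearly all of the selected cells and at a high level. It ranged from 0 through a median of 39 to 429 UMIs per cell, and 217 of the 220 cells had at least 1 UMI (98.6%, against 82.3% of the other cells). Summed over the cells it stood at 4133 CPM (4059 to 4209, exact Poisson), while the rest of the library had 846 CPM, a log2 ratio of 2.29 (2.26 to 2.32). Cell by cell, the median was 3586 CPM with quartiles of 2311 and 5358, against a median of 619 CPM with quartiles of 176 and 1143 in the other cells, so the upper quartile of the other cells lay below the lower quartile of the selected cells. High IGF2 was not limited to them. Cluster 16, led by POSTN, IGFBP3 and WNT2, reached 2857 CPM with no INS, 1 C1QA and 2 SST UMIs. The selected cells held 9.97% of all IGF2 UMIs of the library.

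IGF2 differed among the selected cells by the genes they carried. It was 5162 CPM (4996 to 5333) in cells with INS and C1QA but no SST, 4752 CPM (4613 to 4894) in cells with all 3 genes and 4306 CPM (4065 to 4558) in cells with C1QA alone. It was 2363 CPM (2204 to 2531) in cells with SST alone, 2697 CPM in cells with SST and INS and 2985 CPM in cells with SST and C1QA. The 9 cells with INS alone, which also lacked SST, had 3117 CPM (2764 to 3503). Inside cluster 8, the 21 cells with SST alone had 2752 CPM (2559 to 2955). A single cell held 264 of their 758 IGF2 UMIs. The 109 unselected cells of the cluster had 3119 CPM against 4315 CPM in its selected cells, a log2 ratio of 0.47 (0.40 to 0.53). This ratio was 0.16 without C1QA in the rule, 1.25 with no limit on the mitochondrial share and 1.33 with clustering at resolution 0.5. All these values lay above the 846 CPM of the rest of the library.

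The genes that usually accompany C1QA were at or near 0. The B and C chains of C1q, encoded by C1QB and C1QC, had 0 UMIs in every barcode of the library, where C1QA had 860 in kept cells. C1QA values throughout are those of the feature that bears the symbol, and whether that feature also captures another transcript was not tested. There were also 0 UMIs of CSF1R, the receptor on which macrophages depend. Of 17 macrophage genes with a feature, 11 were at 0 in the selected cells, and the list summed to 16.8 CPM there and 16.7 CPM in the other cells. PTPRC, the pan-leukocyte antigen CD45, and SPI1, the transcription factor PU.1, were at 0, and TYROBP had 1 UMI in 2851693. AIF1, which encodes the macrophage protein IBA1, was the exception with 28 UMIs (9.82 CPM against 0.501). Among 22 complement genes with a feature, 13 were at 0, including C1R and C1S, the proteases that bind C1q, and the only gene at 50 CPM or more was C1QBP, a mitochondrial protein, at 50.8 CPM against 95.2.

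Of 25 pancreatic endocrine genes with a feature, which summed to 114 CPM in the selected cells and 60.0 CPM in the others, 14 were at 0, including GCG (glucagon), PPY (pancreatic polypeptide), NEUROG3 and PDX1, the transcription factors that set up endocrine and pancreatic cells, and PCSK1, which cuts proinsulin. PCSK2, the other prohormone convertase of islets, had 1 UMI, and ISL1 and PAX6 had 2 UMIs each. SCG5, a chaperone of PCSK2, was at 52.2 CPM against 10.9. CHGA, the secretory granule protein chromogranin A, was at 33.0 CPM against 42.2. The somatostatin receptors SSTR1, SSTR3 and SSTR5 were at 0, and CORT, the close relative of SST, had 4 UMIs.

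Across the library, 2211 features other than the rule genes reached 50 CPM in the selected cells or in the other cells. Of these, 185 (8.37%) were at least 2-fold higher in the selected cells and 105 (4.75%) at least 2-fold lower, on levels with 1 CPM added, and the median log2 ratio was -0.00322. With a minimum of 1 UMI in the rule, the counts were 101 and 24. With 1 library there are no replicates for these ratios.

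The 20 genes with the highest ratios held no other hormone gene. ZBTB7C, a zinc finger gene, led at 178 CPM against 1.84, a log2 ratio of 5.98, and was found in 76.4% of the selected cells and 1.38% of the others. TNNI2, known as the troponin I of fast skeletal muscle, was at 201 CPM against 2.30 (log2 ratio 5.93). SLPI, a secreted protease inhibitor, was at 76.8 CPM against 0.294, but in only 22.3% of the cells. ENPEP, the aminopeptidase that trims angiotensin II, was at 62.8 CPM against 0.318, and PTPRO, a receptor tyrosine phosphatase of glomerular podocytes, at 87.0 CPM against 0.914. THSD7A, a membrane protein of podocyte foot processes, was at 189 CPM against 6.80, and CLIC5, an intracellular chloride channel protein tied to ezrin, at 97.8 CPM against 2.02. PARD3B, a polarity protein, was at 157 CPM against 4.44.

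GADD45A, a stress and growth-arrest gene, was at 1123 CPM against 55.0 and was detected in 97.3% of the selected cells. DLK1, an imprinted membrane protein of fetal progenitors, was at 477 CPM against 22.6, and S100A2, a calcium-binding protein, at 426 CPM against 21.4. TF, the iron carrier transferrin, was at 106 CPM against 2.94. The others were PLAC8, DYNC1I1, TINAGL1, PTGS1, PPP2R2B, PLAC1, OSBPL3 and HS3ST3B1, between 57.5 and 128 CPM. Of the 20, 19 had their highest level of all clusters in cluster 8, which is how that cluster was formed and is no separate evidence. The 5 genes whose level over the 17 clusters followed the summed rule genes most closely were CLIC5 (Pearson correlation of log levels 0.901), PLAC8 (0.895), SLPI (0.892), HS3ST3B1 (0.872) and ZBTB7C (0.870), where the points share 1 library and cluster 8 sets the value.

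**Figure D4:**
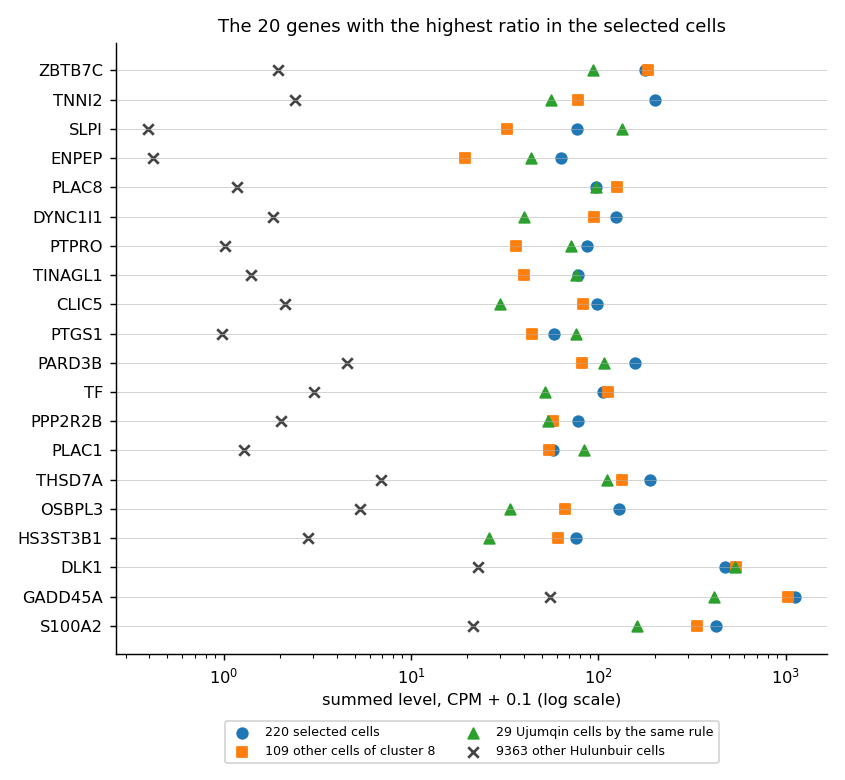
Level in CPM plus 0.1 (log scale) of the 20 genes with the highest ratio in the selected cells, for the 220 selected cells (blue circles), the 109 other cells of cluster 8 (orange squares), the 29 Ujumqin cells found by the same rule (green triangles) and the 9363 other Hulunbuir cells (grey crosses). The 109 unselected cells of the cluster lie closer to the selected cells than to the crosses for all 20 genes.

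The unselected cells of cluster 8 shared the high genes of this profile. Against them, 14 of 2111 features (0.663%) were at least 2-fold higher in the 207 selected cells of the cluster and 3 (0.142%) at least 2-fold lower. Among the 20 genes above, 7 were at least 2-fold higher than in the unselected cells of the cluster. Of the 10 genes with the lowest ratios, described below, 4 were at least 2-fold higher than in the unselected cells and 0 at least 2-fold lower. Inside the cluster, ENPEP was at 67.3 CPM against 19.4, PTPRO at 92.1 against 36.3 and TNNI2 at 213 against 77.8. ZBTB7C was at 187 CPM in the selected and 184 CPM in the unselected cells, and DLK1 at 508 and 542 CPM.

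Genes around IGF2 signalling that reached the minimum level were mostly within 2-fold. Of 25 genes of the insulin and IGF family with a feature, 7 reached the minimum level and 2 of these were higher, against 8.37% of all features, both of them binding proteins that hold IGFs outside the cell. IGFBP5 was at 889 CPM against 92.5 (log2 ratio 3.25) and IGFBP7 at 798 CPM against 56.6 (3.79). IGFBP2, another binding protein, was at 1246 CPM against 747 and did not reach 2-fold. The receptors were below the minimum level in the selected cells. IGF1R was higher there than in the other cells, at 17.5 CPM against 6.40. IGF2R, which clears IGF2, had 53 UMIs, and the insulin receptor INSR had 3 UMIs in all the selected cells.

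CDKN1C, an imprinted inhibitor of cyclin-dependent kinases that restrains fetal growth, was detected in 99.5% of the selected cells. It stood at 4585 CPM against 251 (log2 ratio 4.19). Of 16 imprinted genes with a feature, 4 reached the minimum, and 2 of these, CDKN1C and DLK1, were higher, against 8.37% of all features. MEST was at 181 CPM against 115, and GNAS at 1515 CPM against 1013. Looked at after these values were seen, CDKN1C, IGF2 and TNNI2 are also near neighbours of INS in the RefSeq gene order, CDKN1C being 9 genes away on one side, IGF2 next to INS and TNNI2 10 genes away on the other side. Within 40 genes on either side of INS, 38 had a feature and 5 reached the minimum, of which these 3 were higher, against 8.37% of all features (the other two being CHID1, at 438 CPM against 243, and POLR2L, at 372 against 409). TH, the gene on the other side of INS, had 3 UMIs, all in the selected cells. Around SST 1 of 5 such genes was higher and around C1QA 0 of 8.

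Genes of the intermediate mesoderm were mostly below the minimum level. The intermediate mesoderm is the embryonic strip that gives rise to the kidneys and gonads. CITED1, a transcriptional coactivator of early nephron progenitors, was the only 1 of 9 such genes to reach the minimum, at 113 CPM against 19.5. It was not particular to these cells, being also a leading gene of cluster 13 with CER1, MEOX1 and RIPPLY2. LHX1 was at 48.7 CPM against 2.38, EMX2 at 29.1 against 2.96 and PAX8 at 8.42 against 2.00. WT1, the Wilms tumour factor needed for podocytes and coelomic lining, was at 41.7 CPM against 0.604 and was found in 38.6% of the selected and 0.705% of the other cells. OSR1 and PAX2 had 2 UMIs and 1 UMI. TCF21, a factor of visceral mesoderm and podocytes, was at 232 CPM against 16.0 and was detected in 78.2% of the cells.

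After these values had been seen, a list of 47 genes known from podocytes, the filtering cells of the glomerulus, was written to describe the pattern, and it is not independent evidence of it. Of its 40 genes with a feature, 15 reached the minimum, 14 of these were higher and none was lower, against 8.37% of all features higher. The list summed to 6473 CPM against 684, of which CDKN1C alone gave 4585 CPM. Beside PTPRO, THSD7A, CLIC5, TCF21, ENPEP and HS3ST3B1, the higher genes included VEGFA, the endothelial growth factor, at 161 CPM against 29.2, CD2AP, a slit diaphragm adaptor, at 179 against 65.6, and TJP1, which encodes ZO-1, at 73.6 against 17.2. NPHS1, which encodes nephrin of the slit diaphragm, was below the minimum at 14.7 CPM against 0.0954, with 42 of the 54 kept UMIs of the library in the selected cells. MAGI2 was at 28.1 CPM against 0.429 and LMX1B at 3.16 against 0.0715. SYNPO, a marker of mature podocytes, had 4 UMIs. A second list written at the same time, for nephron tubules and ducts, had 27 genes with a feature, none of which reached the minimum and 17 of which were at 0. On these counts the cells are called by their genes here and given no cell type name.

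Extracellular matrix genes went both ways. Of 9 basement membrane and matrix genes that reached the minimum, COL4A5, LAMB1 and TIMP1 were higher, and COL4A1, COL4A2 and COL18A1 were lower, against 8.37% and 4.75% of all features. COL4A5, a collagen IV chain of the mature glomerular basement membrane, was at 85.9 CPM against 38.0. COL4A1, the general collagen IV chain, was at 168 CPM against 355. BMP7, a kidney growth factor, was at 81.4 CPM against 30.4, and NES, which encodes the intermediate filament nestin, at 1319 against 309.8.

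The 10 genes with the lowest ratios included REG4, DCN, LUM, A2M, PLVAP, S100A10, CDC42EP5, HAND2 and TMEM88. REG4, a secreted lectin, was at 2.10 CPM against 80.8, and DCN and LUM, small proteoglycans of connective tissue, were at 26.3 against 314 and 35.4 against 415. Of 7 mesenchyme genes that reached the minimum, 4 were lower and none was higher, against 4.75% and 8.37% of all features, although COL1A2 was at 340.1 CPM against 280.4. Keratins of simple epithelia were lower too, KRT8 at 57.9 CPM against 224 and KRT18 at 1123 against 2989. PLVAP, an endothelial gene, was at 25.2 CPM against 224 and stood for the 15 endothelial genes with a feature, which summed to 81.0 CPM against 335. None of the lists for blood, neural crest, neurons, heart muscle or germ cells had a gene at the minimum level. HAND2, a factor of the splanchnic mesoderm, was at 8.07 CPM against 68.4.

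The selected cells were not uniform. Because every cell needed 2 UMIs of the 3 genes, a cell without 1 gene had to carry at least 1 of the other 2. Each split below therefore also compares the other 2 rule genes. Of 2186 features, 117 (5.35%) were at least 2-fold higher in the 162 cells with C1QA than in the 58 without, and 38 (1.74%) at least 2-fold lower. For SST, 35 of 2177 features (1.61%) were higher in the 132 cells with it and 20 (0.919%) lower. For INS, 24 of 2144 features (1.12%) were higher in the 148 cells with it and 6 (0.280%) lower.

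The sides of these splits held unequal numbers of cells from other clusters, 4 of the 162 cells with C1QA and 9 of the 58 without, 11 of the 132 with SST and 2 of the 88 without, and 5 of the 148 with INS and 8 of the 72 without. The splits were therefore repeated, after seeing the data, on the 207 selected cells of cluster 8. For C1QA, 101 of 2201 features (4.59%) were then higher and 42 (1.91%) lower. For SST, 33 of 2171 features (1.52%) were higher and 19 (0.875%) lower. For INS, 21 of 2164 features (0.970%) were higher and 9 (0.416%) lower.

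The list of cell cycle genes and the list of podocyte genes, the latter written after its values were seen, were counted in the same splits. Over all features, the shares higher and lower were 5.35 and 1.74% with C1QA, 1.61 and 0.919% with SST, and 1.12 and 0.280% with INS. The median log2 ratio over all features was 0.0214 with C1QA, -0.00910 with SST and 0.0255 with INS. Of 10 cell cycle genes at the minimum level, 7 were lower in cells with C1QA and none was higher, with a median log2 ratio of -1.14. Of 15 podocyte genes, 7 were higher in cells with C1QA and none lower, with a median of 0.987. With SST, 5 of 6 cell cycle genes were higher, with a median of 1.24, and 4 of 16 podocyte genes were lower and none higher, with a median of -0.640. With INS, 2 of 6 cell cycle genes were lower, with a median of -0.783, and 2 of 15 podocyte genes were higher, with a median of 0.541. Inside cluster 8, the counts were 6 of 10 cell cycle genes lower and 7 of 15 podocyte genes higher with C1QA, 4 of 5 cell cycle genes higher and 4 of 16 podocyte genes lower with SST, and 2 of 6 lower and 2 of 15 higher with INS. The shares of all features there, higher and lower, were 4.59 and 1.91% with C1QA, 1.52 and 0.875% with SST, and 0.970 and 0.416% with INS. Against the rest of the library, the selected cells as a whole had 1 of 10 cell cycle genes lower, the replication helicase subunit MCM5 at 97.8 CPM against 208, and none higher. In that comparison 4.75% of all features were lower and 8.37% higher.

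Cells with SST alone were set beside those with INS and C1QA, for genes chosen after their values were seen. PTPRO, CITED1 and ENPEP had 0 UMIs in all 27 of them. In the 21 of these cells that lay in cluster 8, with a median of 10272 UMIs, a count of 0 allows up to 10.9 CPM. In the 56 cells with INS and C1QA but no SST, PTPRO was at 123 CPM, CITED1 at 203 CPM and ENPEP at 126 CPM. THSD7A was at 14.5 CPM (3.96 to 37.2) in the SST-alone cells of the cluster and at 311 CPM in the cells with INS and C1QA, and VEGFA was at 36.3 CPM (17.4 to 66.8) and 203 CPM. TCF21 was detected in both, at 90.8 CPM (58.7 to 134) and 322 CPM.

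Other genes were higher where SST stood alone than in the cells with INS and C1QA. DLK1 was at 893 CPM (785 to 1012) in those 21 cells and at 199 CPM in the cells with INS and C1QA. The cyclin CCND2 was at 733 CPM and 109 CPM, the topoisomerase TOP2A of dividing cells at 508 CPM and 152 CPM, and LHX1 at 134 CPM (94.6 to 185) and 31.1 CPM. CD24, a surface protein of epithelial progenitors, was at 392 CPM and 39.5 CPM. CDKN1C was detected in all 21 SST-alone cells, at 3162 CPM (2955 to 3379) and 5347 CPM, and IGFBP5 was at 247 CPM (192 to 313) and 1062 CPM. Of those 21 cells and of the 56 with INS and C1QA, DLK1 was detected in 15 and 43, and CCND2 in 14 and 28. TOP2A was detected in 11 and 22, LHX1 in 13 and 14, and CD24 in 16 and 9. A single cell held 86282 of the 275476 UMIs of the 21 cells, and its part in these levels was not tested. Cells with all 3 genes were closer to those without SST in PTPRO (106 CPM), THSD7A (219.9 CPM) and CCND2 (161 CPM), and lay between for DLK1 (472 CPM) and TOP2A (294 CPM). The 22 cells with SST and C1QA but no INS had 918 CPM of DLK1 and 781 CPM of TOP2A, above the SST-alone cells, with PTPRO at 57.7 CPM and THSD7A at 35.5 CPM. The 22 cells with SST and INS but no C1QA had 835 CPM of DLK1, 721 CPM of TOP2A, 18.4 CPM of PTPRO and 25.8 CPM of THSD7A.

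**Figure D5:**
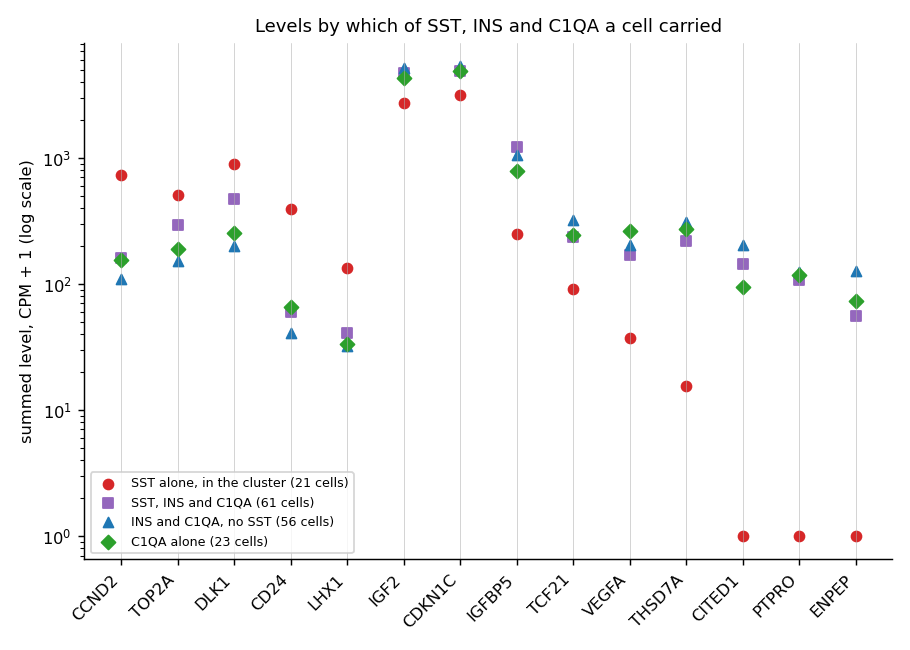
Level of 14 genes in CPM plus 1 (log scale) in selected cells grouped by the rule genes they carried, namely SST alone inside cluster 8 (21 cells, red circles), all 3 genes (61 cells, purple squares), INS and C1QA without SST (56 cells, blue triangles) and C1QA alone (23 cells, green diamonds). The 14 genes were chosen after their values were seen; of the 4 groups drawn, the red circles are the highest for the 5 genes on the left and the lowest for the 9 on the right, with CITED1, PTPRO and ENPEP at 0.

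The cluster most like cluster 8 in overall levels was cluster 14, with 192 cells and leading genes DLK1, SLC45A2, EMX2 and LHX1. The correlation of log levels over 2813 features was 0.896, and the next cluster had 0.891. Of 2207 features, 223 (10.1%) were at least 2-fold higher in the selected cells than in cluster 14 and 97 (4.40%) at least 2-fold lower. DLK1 was shared, at 477 CPM and 528 CPM, while LHX1 was at 48.7 CPM against 87.4 and EMX2 at 29.1 against 89.6. CDKN1C was at 4585 CPM against 1372, IGF2 at 4133 against 1298 and TCF21 at 232 against 2.65. PTPRO, ENPEP, SLPI and PLAC8 had 0 UMIs in cluster 14, and its 53 SST UMIs came mostly from 2 cells that held 38 and 14 of them.

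In the Ujumqin library the same rule chose 29 of 14554 kept cells, 0.199% (0.133 to 0.286%). With each cell thinned to 1000 UMIs, the shares were 0.993% in the Hulunbuir and 0.0803% in the Ujumqin library. With 1 pooled library each, breed, dissection and cell recovery cannot be told apart. The 29 cells held 297 SST, 25 INS and 145 C1QA UMIs, all 3 genes met in 2 cells, INS and C1QA met without SST in 5, and C1QA stood alone in 12. IGF2 was at 3194 CPM against 497 in the other Ujumqin cells. Of 1881 features, 395 (21.0%) were at least 2-fold higher in the 29 cells than in other Ujumqin cells and 49 (2.60%) at least 2-fold lower.

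Of the 20 leading Hulunbuir genes, 19 were also at least 2-fold higher in the Ujumqin cells found by the rule. ZBTB7C was at 93.5 CPM against 0.775, PTPRO at 71.6 against 0.234 and SLPI at 133 against 0.818. TF was the exception, at 51.7 CPM against 134. The 29 cells were more mixed than those of the Hulunbuir library. In the 12 cells with C1QA alone, the 17 macrophage genes summed to 1008 CPM, with 52 UMIs of TYROBP, 5 of C1QB, 3 of CSF1R and 2 of C1QC. In the 17 cells with SST or INS the same list summed to 12.3 CPM, with 0 UMIs of these 4 genes. ZBTB7C was at 50.4 CPM in the former and 139 CPM in the latter, and CDKN1C at 2004 and 2221 CPM.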

How the data were processed

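Per the file headers and the study's methods, the authors made the deposited counts (UMIs per gene and barcode, not normalized) with Cell Ranger 5.0.0 on the Rambouillet v1.0 assembly; the labels name version 3.1.0. The files hold 26478 features, 9808 without a symbol, and 0 columns of other samples. The Hulunbuir library had 10709 barcodes and 131385353 UMIs (median 11879 per kept cell), and the Ujumqin library 17059 barcodes and 212933364 UMIs (9519). Barcodes with at least 200 genes and under 10% UMIs on mitochondrial symbols were kept, 9583 and 14554 of them.

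The selected cells and gene lists were chosen with earlier results of these data known, and the lists of podocyte and tubule genes after their values were seen. Levels were sums over cells in CPM, and ratios were taken with 1 CPM added. A feature was called at 2-fold or more with at least 50 CPM in either group. The rule genes were left out. Named genes were the 4 genes of the rule and of its label, the 20 highest and 10 lowest ratios, up to 4 per list, the 5 genes most alike over clusters and the 10 leading genes of cluster 8; all other names were chosen after their values were seen. Some genes that this rule names are not reported here. Cells were scaled to 10000 UMIs, and 30 principal components of 2000 variable genes gave a graph of shared neighbours (20 neighbours, links under 1 in 15 removed), which was clustered with leidenalg 0.10.2 at resolution 1. Scrublet was run in scanpy 1.11.5. Figures were drawn with matplotlib 3.10.9, and sums were computed with pandas 2.3.3 and numpy 2.4.6 under Python 3.11.15; scipy 1.17.1 gave the intervals. Calls were checked on simulated counts that held counting error only and changes larger than the 2-fold limit. The check does not cover variation between cells or changes near 2-fold. Intervals were exact binomial or Poisson at 95%, a count of 0 was read as up to 3 counts, and no p-value was computed.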

Additional observations from a re-analysis of the deposited data

Results flagged for a closer look

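A signal of the 3 genes was present in barcodes that the filter had removed. Of the 1126 Hulunbuir barcodes left out, 7 had at least 2 UMIs of SST, INS and C1QA (0.622%, exact binomial interval 0.250 to 1.28%), where a count of 0 would allow up to 0.266%. All 7 had been left out for a mitochondrial share of 10% or more. They held 12 SST, 8 INS and 5 C1QA UMIs at a median depth of 1078 UMIs. Their IGF2 level was 2239.6 CPM, against 708 CPM in the other barcodes left out.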

How the results depend on the processing

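With 1 library per breed, no value here has a replicate, and the changes below are set against counting intervals. The share of selected cells (2.30%) was 3.70, 2.00, 1.70 and 1.14% with at least 1, 3, 5 and 10 UMIs, 1.82% without SST in the sum, 1.83% without C1QA, and 0.993 and 1.47% with cells thinned to 1000 and 2000 UMIs. The share of cells carrying at least 2 of the genes (73.2%) was 45.4, 79.2, 85.3 and 92.7% at those 4 minimums, 45.6 and 55.2% after thinning, and 49.1% when a gene needed 2 UMIs. The largest share in 1 cluster (94.1%) was 67.6% at 1 UMI, 97.2% at 10, 98.3% without SST and 89.1% at resolution 2.

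The IGF2 log2 ratio (2.29) was 1.83, 2.33 and 2.38 at 1, 5 and 10 UMIs, 2.40 without SST, 2.21 without C1QA, 2.22, 2.22 and 2.40 after thinning to 1000, 2000 and 5000 UMIs, 2.37 without the cells of highest doublet score, 2.23 without the deepest 5% of cells and, in a comparison added after seeing the data, 2.37 for selected cells inside cluster 8 against cells outside it. The IGF2 ratio within the cluster (0.47) was 0.39, 0.36, 0.35 and 0.37 at 1, 3, 5 and 10 UMIs, 0.58, 0.34 and 0.16 without SST, INS and C1QA, 0.54 without the highest doublet scores, and 1.25 with no mitochondrial limit and 1.33 at resolution 0.5. The cause of these 2 changes was not tested.

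Genes higher and lower (185 and 105) were 101 and 24 at 1 UMI, 85 and 25 at 4-fold, 520 and 362 with 10 CPM as the minimum and 1002 and 830 with none. The Ujumqin share (0.199%) was 0.399 and 0.0962% at 1 and 10 UMIs, 0.0825% without C1QA, and 0.0803 and 0.0950% after thinning to 1000 and 2000 UMIs. Splitting only the selected cells of cluster 8 by SST, INS or C1QA, added after seeing the data, kept all 6 counts of higher and lower genes within 1.5 times. No value changed direction. No paired analysis was possible because each breed has 1 library and the result comes from no test. Genes under 50 CPM rest on fewer than 143 UMIs in the selected cells, and groups of 9 to 23 cells can be set by single cells.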

Other observations

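HOX genes mark position along the body axis, and 36 with a feature summed to 293 CPM in the selected cells against 353 in the other Hulunbuir cells. HOXA5, a gene of the cervical and upper thoracic level, was the only 1 to reach 50 CPM, at 78.5 CPM against 18.8, and the genes below were chosen after their values were seen. HOXA3 was at 44.9 CPM against 15.5, HOXA4 at 23.8 against 7.69 and HOXA2 at 22.4 against 8.16. HOXA7 was at 10.5 CPM against 42.1, HOXA9 at 4.91 against 21.1, HOXC9 at 9.82 against 45.4 and HOXB9 at 4.91 against 26.4. HOXA13 had 0 UMIs in the selected cells, which allows up to 1.05 CPM, against 13.0 CPM in the others. The unselected cells of cluster 8 had HOXA5 at 71.3 CPM and 0 UMIs of HOXA9. Cluster 14 had HOXA5 at 37.8 CPM, HOXA7 at 107 and HOXB9 at 88.9.

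Of 8 hypoxia and glycolysis genes at the minimum level, VEGFA was the only 1 that was higher, against 8.37% of all features. The glycolytic enzymes PGK1 (889 CPM against 1009), ALDOA (529 against 601) and LDHA (157 against 170.2) lay within 2-fold of the other cells. Among 6 genes of a heat shock and immediate early list at the minimum level none was higher, and HSPB1, a small heat shock protein, was lower at 565 CPM against 2067. Over all features, 8.37% were higher and 4.75% lower. With so few genes, these counts do not set the lists apart from all features.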
